A study of Mus musculus with 8 samples.

Results

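The genes of cholesterol synthesis and sterol control were examined in liver of 4 NZO and 4 B6 mice. The 29 genes were chosen by function, from a list of named enzymes and sterol regulators, out of 20137 genes tested. All 29 were found on the array, and the probe used for each was well above background on all 8 arrays. All mice were male, were 6 weeks old and received a high fat diet with 45% fat. The obese, diabetes-susceptible strain was NZO/HiBomDife and the lean, diabetes-resistant strain was C57BL/6, here called B6. Each mouse contributed 1 array with 1 colour (Cy3), so the p-values measure the spread between mice. The strains differ across the whole genome, so a difference between them cannot be assigned to a single locus. Levels are given as the log2 of the processed signal minus the 75th percentile of the same array, and a difference is NZO minus B6 on that scale. They are listed for NZO mice 007, 003, 009 and 011 and then for B6 mice 011, 010, 015 and 009.

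Cholesterol is built from acetyl-CoA in a long chain of steps, first to mevalonate and farnesyl diphosphate, then through squalene to lanosterol, and from lanosterol to cholesterol. The liver is a main site of this synthesis and also exports sterols into bile. When sterols in the endoplasmic reticulum are low, SCAP escorts SREBP2, the product of Srebf2, to the Golgi, where it is cut and released to switch on genes of synthesis. INSIG proteins hold SCAP back when sterols are high. An excess of oxysterols activates the LXR receptors, whose targets include the exporters Abcg5 and Abcg8 and the ubiquitin ligase Mylip.

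The sequences before the gene starts are shown for the 2 members with the largest positive differences (Hsd17b7 and Mvd), the 2 with the largest negative ones (Abcg5 and Abcg8) and Hmgcs1, the member of the early chain with a negative difference, a choice made after the values were seen. Promoter sequences were taken from the RefSeq table of build GRCm38.p6, which listed 24 of the 29 members with 31 starts in all. Fdps, Fdft1, Sqle, Stard4 and Soat2 were not matched. The 250 bases before each start are written 5′ to 3′ on the strand of the gene, and capitals mark matches on either strand to 4 motifs, the sterol regulatory element TCACNCCAC, the CCAAT box CCAAT, the GC box GGGCGG and the E-box CACGTG. The motifs do not contain each other, although their matches may overlap. The windows are chr1:169969206-169969455 on the minus strand for Hsd17b7, chr8:122443423-122443672 on the minus strand for Mvd, chr13:119690101-119690350 on the plus strand for Hmgcs1, chr17:84683012-84683261 on the minus strand for Abcg5 and chr17:84682871-84683120 on the plus strand for 1 of the starts of Abcg8. A start in the promoter table need not be the outer end of the gene in the RefSeq gene table, so 37 bases of the Hsd17b7 window and all 250 of the Abcg8 window lie inside the spans given for these genes below.
Hsd17b7: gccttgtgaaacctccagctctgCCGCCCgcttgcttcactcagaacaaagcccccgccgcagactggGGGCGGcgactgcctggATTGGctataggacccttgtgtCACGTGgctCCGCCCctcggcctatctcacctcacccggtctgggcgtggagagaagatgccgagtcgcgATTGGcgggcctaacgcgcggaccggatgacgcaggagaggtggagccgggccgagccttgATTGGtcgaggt
Mvd: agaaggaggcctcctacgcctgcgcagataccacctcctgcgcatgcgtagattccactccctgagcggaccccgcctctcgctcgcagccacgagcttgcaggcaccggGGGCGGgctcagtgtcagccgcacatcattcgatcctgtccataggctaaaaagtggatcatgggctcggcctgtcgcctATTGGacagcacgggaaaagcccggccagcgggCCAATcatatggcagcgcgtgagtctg
Hmgcs1: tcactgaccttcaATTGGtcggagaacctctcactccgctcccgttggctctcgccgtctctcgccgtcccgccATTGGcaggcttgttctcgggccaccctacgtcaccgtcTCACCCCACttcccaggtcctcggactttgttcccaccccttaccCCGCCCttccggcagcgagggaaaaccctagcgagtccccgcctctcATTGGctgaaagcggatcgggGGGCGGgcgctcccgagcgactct
Abcg5: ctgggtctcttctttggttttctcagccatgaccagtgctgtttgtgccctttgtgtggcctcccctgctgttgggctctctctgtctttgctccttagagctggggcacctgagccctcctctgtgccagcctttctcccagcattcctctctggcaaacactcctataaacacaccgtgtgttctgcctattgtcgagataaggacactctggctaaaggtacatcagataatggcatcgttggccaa
Abcg8: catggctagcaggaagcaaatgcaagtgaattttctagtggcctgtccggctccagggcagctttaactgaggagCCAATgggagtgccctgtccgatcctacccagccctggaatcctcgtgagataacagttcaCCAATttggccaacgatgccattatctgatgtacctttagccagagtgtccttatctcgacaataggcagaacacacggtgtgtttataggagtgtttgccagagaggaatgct
The Hmgcs1 window held the only match to TCACNCCAC among the 31 member windows, and this motif was present in 1.05% of 32851 windows of the same length. The Hsd17b7 window held 3 CCAAT boxes, 3 GC boxes and 1 E-box, and the Mvd window held 2 CCAAT boxes and 1 GC box. The Abcg5 window held 0 matches to the 4 motifs. The Abcg8 window held 2 CCAAT boxes and overlapped the window of Abcg5, which lies on the opposite strand, by 109 bases, whereas the window of the other Abcg8 start shared 0 bases with it. CCAAT was found in 21 of 31 member windows (67.7%) and in 33.8% of all windows, GGGCGG in 22 (71%) and in 32.7%, and CACGTG in 5 (16.1%) and in 6.02%. The member windows were also richer in G and C, with a median of 62.4% against 52.4% over all windows. These counts describe letters in the windows and were not tested.

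Of the 20 enzymes of synthesis, 17 had a higher mean level in NZO liver, as did 53.3% of all genes tested. Of the 20, 6 rose past the adjusted threshold below and 2 (Ggps1 and Lbr) fell. Of the 5 genes of sterol transport, export, esterification and receptor turnover, 4 had a lower mean level in NZO, 3 of them past that threshold (Mylip, Abcg5 and Soat2). By the rule that the methods give, a log2 difference of at least 0.7 up or down with an unadjusted p (here from limma) of at most 0.05, 6 members were higher in NZO (Acat2, Mvd, Fdps, Sqle, Cyp51 and Hsd17b7) and 2 were lower (Abcg5 and Abcg8). Of all genes tested, 5.24% were higher and 6.60% were lower by this rule, against 20.7% and 6.9% of the members. After Benjamini-Hochberg adjustment of the limma p-values over all genes with the same fold threshold, 4 members stayed higher (Acat2, Mvd, Fdps and Hsd17b7) and 1 stayed lower (Abcg5), where 4.44% and 5.02% of all genes did so. At an adjusted p of at most 0.05 with any fold, 8 members were higher and 5 were lower, which is 27.6% and 17.2% of them beside 7.35% and 7.42% of all genes. In what follows, rose and fell refer to this last rule, and the fold threshold is named where it was met. In 10 members all NZO arrays lay above all B6 arrays and in 5 all lay below, which is 34.5% and 17.2% beside 11.9% and 10.5% of all genes. The median log2 fold change of the members was 0.40 and that of all genes 0.03.

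**Figure D1:**
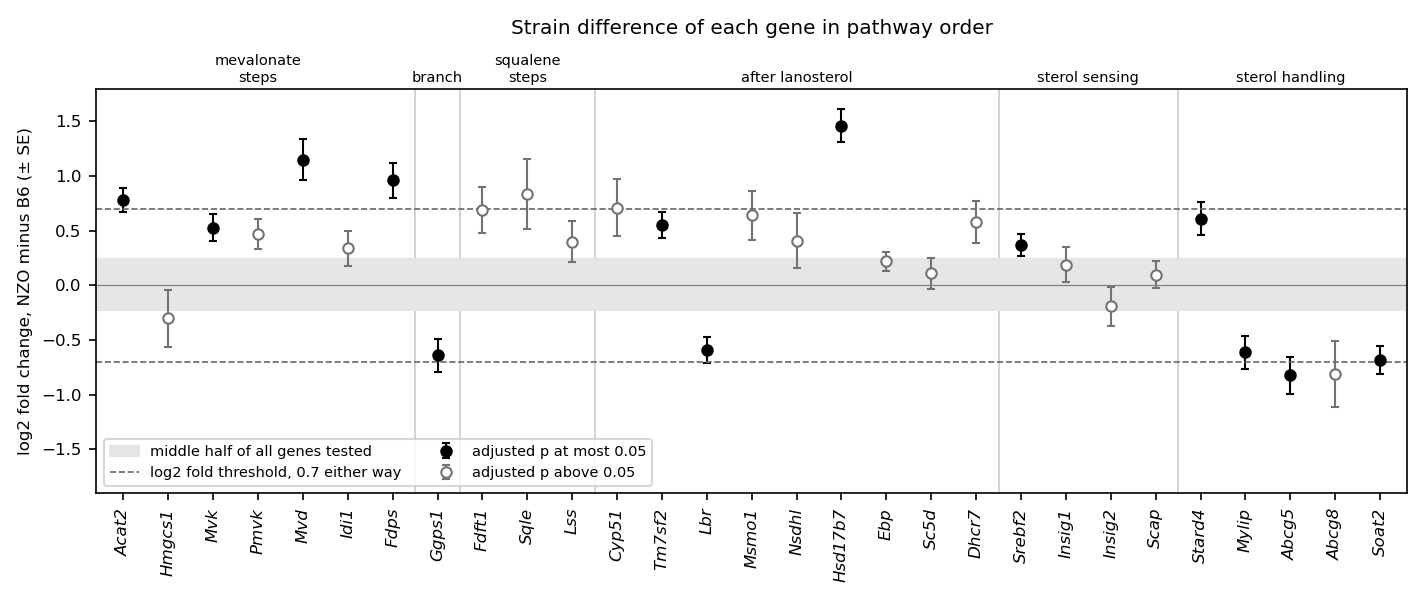
Log2 fold change of each of the 29 genes, NZO minus B6, with its standard error, in pathway order from left to right (4 mice in each strain). Filled points have a limma adjusted p of at most 0.05, dashed lines mark 0.7 up and down and the grey band spans the quartiles of all 20137 genes, -0.22 to 0.24. Of the 20 enzymes of synthesis, 17 lie above 0, and 4 of the 5 sterol handling genes at the right lie below it.

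Among the 7 enzymes from acetyl-CoA to farnesyl diphosphate, 4 rose and none fell, beside 7.35% and 7.42% of all genes. The median log2 fold change of the 7 was 0.53. Mvd, the decarboxylase that closes the mevalonate steps (chromosome 8, 122433596 to 122443422 on GRCm38), was at 2.56, 2.61, 2.73 and 2.25 in NZO and at 0.92, 1.72, 1.57 and 1.33 in B6. The strains did not overlap, with the lowest NZO mouse above the highest B6 mouse, and the level was 2.22-fold higher in NZO (log2 fold change 1.15, SE 0.19, limma adjusted p = 0.00448). Fdps, farnesyl diphosphate synthase (chromosome 3, 89093588 to 89101967), was at 6.46, 6.44, 6.50 and 6.35 in NZO and at 5.12, 5.88, 5.55 and 5.37 in B6, a 1.94-fold difference (log2 fold change 0.96, SE 0.16, adjusted p = 0.00442). Its SD was 0.06 in NZO and 0.32 in B6, and all NZO mice were above all B6 mice. Acat2, the cytosolic thiolase of the first step (chromosome 17, 12943042 to 12960725), was at 6.64, 6.83, 6.58 and 6.86 in NZO and at 5.89, 5.77, 6.08 and 6.06 in B6. It was 1.71-fold higher in NZO with tight groups (SD 0.14 and 0.15, log2 fold change 0.78, SE 0.11, adjusted p = 0.00263). The calls of Mvd, Fdps and Acat2 held when any mouse was left out, but that of Fdps was lost in the Welch test (adjusted p = 0.0665).

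Mvk, mevalonate kinase, rose by 0.53 (SE 0.12, limma adjusted p = 0.024) without reaching the fold threshold. Its 4 B6 mice were within 4.05 to 4.2 and its NZO mice within 4.33 to 4.84, with NZO 011 the lowest. This call was lost without NZO 003, NZO 009, B6 011, B6 010 or B6 009, where the adjusted p reached 0.0681, and also in the Welch test (0.0998), with dim probes kept (0.0667) and in the deposited table (0.224). Pmvk, phosphomevalonate kinase, had a log2 fold change of 0.47 (SE 0.14, adjusted p = 0.0641) and no overlap between the strains, and Idi1, the isomerase, one of 0.34 (SE 0.16, adjusted p = 0.207) with overlap. The 95% confidence interval ran from 0.14 to 0.80 for Pmvk and from -0.02 to 0.70 for Idi1. Without B6 010, Pmvk was at 0.57 with an adjusted p of 0.0403. Hmgcs1, the cytosolic HMG-CoA synthase, was the only one of the 7 with a negative value. It was at 5.49, 5.59, 5.72 and 4.59 in NZO and at 5.30, 5.95, 5.69 and 5.63 in B6. The strains overlapped, NZO 011 was the lowest of all mice, and the log2 fold change of -0.30 (SE 0.26, adjusted p = 0.5) had an interval from -0.89 to 0.30. Without NZO 011 it was -0.05 (adjusted p = 0.897).

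Farnesyl diphosphate is also the branch point towards geranylgeranyl diphosphate, the lipid tail of many small GTPases, which is made by the product of Ggps1. Ggps1 fell in NZO, with levels of -0.32, 0.01, -0.44 and -0.02 against 0.33, 0.38, 0.33 and 0.73 in B6. The groups did not overlap (log2 fold change -0.64, SE 0.15, limma adjusted p = 0.0214), but the 3 probes of this gene disagreed. The other two gave differences of -0.70 (SE 0.16) and -0.04 (SE 0.09), and the adjusted p of the brightest probe was up to 0.0533 without NZO 009 or B6 009, 0.0567 with dim probes kept and 0.052 in the Welch test. Fdps, the enzyme just before the branch, had a positive difference and Ggps1 a negative one.

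Between farnesyl diphosphate and lanosterol, all 3 enzymes had positive differences, as did 53.3% of all genes, but none passed after adjustment. An unadjusted limma p of at most 0.05 was found for 2 of the 3 and for 5689 of all 20137 genes. Squalene epoxidase, Sqle, a control step of the later chain, was at 4.95, 4.61, 5.05 and 3.99 in NZO and at 3.64, 4.03, 4.41 and 3.15 in B6. It was the most variable of the 3, with an SD of 0.48 in NZO and 0.54 in B6, and NZO 011 lay below 2 of the 4 B6 mice. The log2 fold change was 0.84 (SE 0.32, interval 0.11 to 1.57), which met the thresholds of the methods but had a limma adjusted p of 0.125. That call was lost without NZO 007, NZO 003, NZO 009, B6 011 or B6 009, where the log2 fold change was as low as 0.62. Fdft1, squalene synthase, had a log2 fold change of 0.69 (SE 0.21, adjusted p = 0.0718) and Lss, lanosterol synthase, one of 0.40 (SE 0.19, adjusted p = 0.225). Without NZO 011, Fdft1 was at 0.83 with an adjusted p of 0.0388. It also passed with normexp correction (0.62, adjusted p = 0.0462) and with the mean over probes (0.80, adjusted p = 0.0438).

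After lanosterol, 2 of 9 enzymes rose and 1 fell, beside 7.35% and 7.42% of all genes. Positive differences were found for 8 of the 9 and for 53.3% of all genes. Hsd17b7, the ketosteroid reductase that works with Nsdhl in removing methyl groups from the sterol ring (chromosome 1, 169949535 to 169969242), had the largest difference of all 29 members. It was at 3.38, 3.49, 3.45 and 3.07 in NZO and at 1.64, 2.19, 1.85 and 1.87 in B6. The lowest NZO mouse was well above the highest B6 mouse, and the level was 2.75-fold higher in NZO (log2 fold change 1.46, SE 0.15, limma adjusted p = 3.67e-04). The other probes of Hsd17b7 gave 1.1 (SE 0.20) and 1.11 (SE 0.15), and the call held without any mouse, with log2 fold changes between 1.38 and 1.56.

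The next reaction after the demethylation of lanosterol is the reduction of a double bond in the ring, which is carried out by the products of Tm7sf2 and Lbr, and these genes moved in opposite directions. Tm7sf2 was at 6.37, 6.36, 6.41 and 6.01 in NZO and at 5.58, 5.77, 5.85 and 5.74 in B6 (log2 fold change 0.55, SE 0.12, limma adjusted p = 0.0154). A further probe of Tm7sf2 also gave 0.55 (SE 0.11). Lbr, which is also a structural protein of the inner nuclear membrane, was at 0.09, 0.23, 0.54 and 0.27 in NZO and at 0.83, 1.02, 0.83 and 0.80 in B6 (log2 fold change -0.59, SE 0.12, adjusted p = 0.0116). For both genes the strains were fully separated and the call held without any mouse, but neither reached the fold threshold. The call of Tm7sf2 was lost with quantile normalization (adjusted p = 0.0599) and in the deposited table (adjusted p = 0.126).

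Cyp51, which demethylates lanosterol, was at 1.47, 1.59, 1.92 and 0.83 in NZO and at 0.48, 1.24, 0.78 and 0.47 in B6. NZO 011 lay among the B6 mice, and the log2 fold change of 0.71 (SE 0.26) met the thresholds of the methods but had a limma adjusted p of 0.114. It dropped out of that call without NZO 003, NZO 009, B6 011 or B6 009, with a lowest value of 0.55, whereas without NZO 011 it was 0.92 with an adjusted p of 0.0374. The remaining enzymes had adjusted p-values above the threshold. Msmo1, the methyl sterol oxidase, had a log2 fold change of 0.64 (SE 0.22, adjusted p = 0.0977), which became 0.81 (adjusted p = 0.0367) without NZO 011. Dhcr7, which makes cholesterol in the last step of one branch, was at 0.58 (SE 0.19, adjusted p = 0.0856) and Nsdhl at 0.41 (SE 0.25, adjusted p = 0.332). Ebp, the sterol isomerase, varied little, with an SD of 0.08 in NZO and 0.07 in B6, no overlap and a log2 fold change of 0.22 (SE 0.09, adjusted p = 0.134). Sc5d, the desaturase that follows it, was at 0.11 (SE 0.14, adjusted p = 0.67) with an interval from -0.22 to 0.43.

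**Figure D2:**
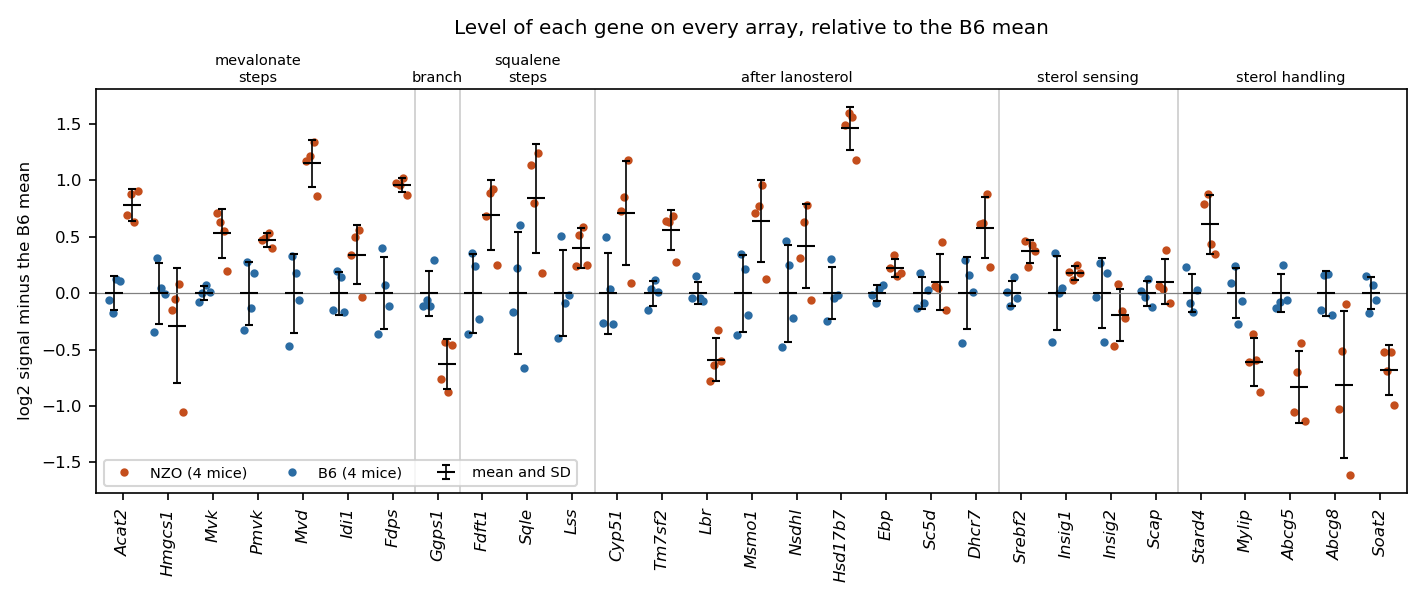
Log2 signal of each gene on each of the 8 arrays minus the B6 mean of that gene, with the mean and SD of each strain as bars (NZO in orange, B6 in blue, 4 mice each). Hsd17b7, Mvd, Fdps and Acat2 separate the strains completely, Sqle, Cyp51 and Nsdhl do not, and the NZO mice lie below the B6 mice for Ggps1, Lbr, Mylip, Abcg5 and Soat2.

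Of the 4 sensing genes, 1 rose, beside 7.35% of all genes, and the differences were small, from -0.19 to 0.37. Srebf2 was at 0.09, -0.14, 0.06 and 0.00 in NZO and at -0.36, -0.48, -0.23 and -0.41 in B6, which did not overlap (log2 fold change 0.37, SE 0.10, limma adjusted p = 0.0359). The call depended on the full set of mice, since it was lost without NZO 007, NZO 009, NZO 011, B6 011, B6 010 or B6 009 (adjusted p of up to 0.101), and the dimmer probe gave 0.28 (SE 0.19). Insig1, itself a target of SREBP2, had a log2 fold change of 0.19 (SE 0.16, adjusted p = 0.485, interval -0.18 to 0.56). Its NZO mice were within 2.37 to 2.50 and its B6 mice spread from 1.82 to 2.61. Insig2 was at -0.19 (SE 0.18, interval -0.60 to 0.22) and Scap at 0.10 (SE 0.12, interval -0.18 to 0.38).

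Of the 5 sterol handling genes, 3 were lower and 1 was higher after adjustment, beside 7.42% and 7.35% of all genes. The median log2 fold change of the 5 was -0.68. Abcg5 and Abcg8 encode the subunits of the transporter that moves sterols into bile, and they lie on opposite strands of chromosome 17 with spans that overlap (84658174 to 84683011 and 84676302 to 84700333). Abcg5 was at 4.01, 4.36, 4.62 and 3.93 in NZO and at 4.93, 4.98, 5.31 and 5.0 in B6. All NZO mice were below all B6 mice, a 1.77-fold difference (log2 fold change -0.82, SE 0.17, limma adjusted p = 0.0143) that held without any mouse but not in the Welch test (adjusted p = 0.0656). Abcg8 was at -0.76, -0.24, 0.17 and -1.34 in NZO and at 0.12, 0.43, 0.44 and 0.08 in B6. Here the strains overlapped because NZO 009 was above 2 B6 mice, and the SD was 0.65 in NZO against 0.20 in B6. Its log2 fold change of -0.81 (SE 0.30) was near that of Abcg5 and met the thresholds of the methods, but the limma adjusted p was 0.12. It no longer met the thresholds of the methods without NZO 007, NZO 011, B6 010 or B6 015, with a value of -0.55 without NZO 011, and without NZO 009 it was -1.05 with an adjusted p of 0.0389. The 4 NZO mice had the same order for both exporters, with NZO 009 the highest, then NZO 003 and NZO 007, and NZO 011 the lowest.

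Soat2, the acyltransferase that esterifies cholesterol in hepatocytes, was at 3.44, 3.27, 3.44 and 2.97 in NZO and at 4.11, 3.78, 4.03 and 3.9 in B6. The groups were separate and the difference held without any mouse (log2 fold change -0.68, SE 0.13, limma adjusted p = 0.0113), just short of the fold threshold. Mylip, the ligase that marks lipoprotein receptors for breakdown, had NZO levels from -0.27 to 0.25 and B6 levels from 0.34 to 0.85. It fell by 0.61 on the log2 scale (SE 0.15, adjusted p = 0.0285), its dimmer probe gave -0.79 (SE 0.15), and the call was lost without NZO 007, NZO 009, NZO 011, B6 011, B6 010 or B6 009 (adjusted p of up to 0.0776). Stard4, a cytosolic sterol carrier and a target of SREBP2, rose instead, with NZO levels of 3.76, 3.85, 3.41 and 3.32 against 3.2, 2.88, 2.80 and 3.0 in B6. Its log2 fold change was 0.61 (SE 0.15, adjusted p = 0.0316), and a dimmer probe gave 0.28 (SE 0.18). Without NZO 007, NZO 003, B6 010, B6 015 or B6 009 its adjusted p was above the threshold and at most 0.0858.

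The mice of a strain differed from each other across the chain as a whole. For the 19 enzymes on the route to cholesterol, which leaves out Ggps1, each level was set against the mean of its own strain. NZO 011 was below the NZO mean in 18 of the 19, with a median deviation of -0.29, and was the lowest NZO mouse in 15. NZO 009 was above the mean in 17, with a median of 0.22, and the highest in 15. In B6, mouse 011 was below the mean in 19 of 19 (median -0.26), and mouse 010 was above it in 16 (median 0.29) and the highest in 14. Over all 20137 genes the median deviations of these 4 arrays were -0.00, -0.00, 0.04 and -0.02, so the shifts of the chain were larger than those of the arrays as a whole. NZO 009 and NZO 011 were on the same slide. In B6, mice 010 and 015 shared a slide and the first scan day, and mice 011 and 009 were scanned on the second. The chain medians were 0.29 and 0.07 for mice 010 and 015, and -0.26 and -0.02 for mice 011 and 009. Differences between B6 mice thus cannot be told apart from scan day. The largest deviations were those of Hmgcs1 (-0.76), Sqle (-0.66) and Cyp51 (-0.62) in NZO 011 and of Sqle in B6 015 (0.60) and B6 009 (-0.66). The median SD within a strain was 0.22 in NZO and 0.28 in B6 for the 19 enzymes, beside 0.22 and 0.18 for all genes. Without NZO 011, the number of members higher after adjustment with the fold threshold was 8 in place of 4.

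**Figure D3:**
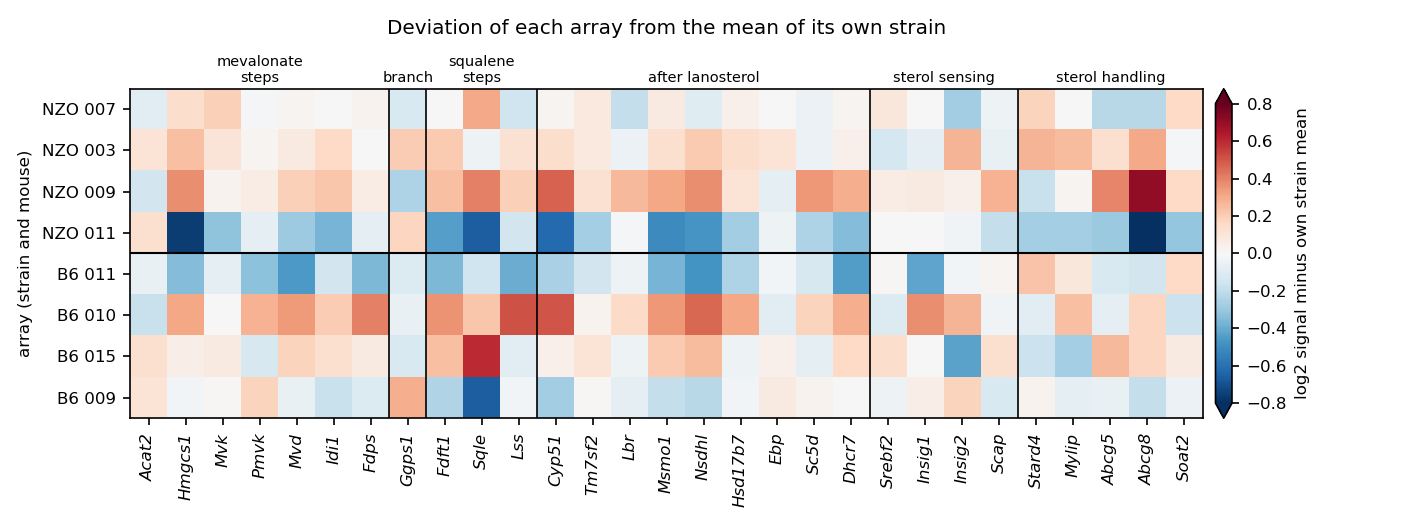
Deviation of each array (rows) from the mean of its own strain for each of the 29 genes (columns), on the log2 scale, with red above and blue below the strain mean and colours cut at 0.8. NZO 011 and B6 011 are blue across most of the synthesis enzymes and NZO 009 and B6 010 red, while Acat2, Ggps1, Ebp and Srebf2 vary little or in another order.

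Only 1 slide held both strains, with NZO 003, B6 010 and B6 015, and the arrays were scanned on 2 days. The median difference of the members was 0.25 within the first scan day (3 NZO and 2 B6 mice), 0.50 within the second (1 NZO and 2 B6 mice) and 0.33 within the shared slide. Of the 19 enzymes of the chain, 17, 18 and 17 had positive differences there, and over all arrays 17 did, beside 53.3% of all genes tested. Hsd17b7 differed by 1.31, 1.63 and 1.46 in these 3 subsets, Mvd by 0.88, 1.43 and 0.97, and Abcg5 by -0.84, -0.95 and -0.78. The shared slide was part of the first scan day and held the same 2 B6 mice, so these subsets are not independent. Sqle was less even, at 0.33, 1.55 and 0.39. With other scalings of the arrays, 16 of the 19 enzymes were positive after quantile normalization and 15 in the deposited table, and Sc5d was the one that turned negative in both.

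The neighbouring genes of the pathway were read from lists chosen by function. Of the 7 remaining synthesis genes, 5 were tested and 1 rose, beside 7.35% of all genes. This was Acat3 (log2 fold change 0.71, SE 0.10, limma adjusted p = 0.00203), a close paralog of Acat2. The probes of the paralogs shared no run longer than 5 bases, but transcripts of such similar genes may still be read in part by the same probe, so their values are uncertain as separate measurements. The proteases Mbtps1 and Mbtps2, which cut SREBP, were at 0.15 (SE 0.09, adjusted p = 0.346) and 0.29 (SE 0.15, adjusted p = 0.251).

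Of 17 genes of sterol transport and the LXR system, 16 were tested, 2 rose and 1 fell, beside 7.35% and 7.42% of all genes. Scarb1, the receptor for high-density lipoprotein, was at 3.33, 3.25, 3.18 and 2.98 in NZO and at 4.60, 4.09, 5.01 and 4.48 in B6. It was 2.56-fold lower in NZO (log2 fold change -1.36, SE 0.19, limma adjusted p = 0.00191). Lipa, the lysosomal lipase that frees cholesterol from its esters, was 2.09-fold higher in NZO (log2 fold change 1.07, SE 0.12, adjusted p = 6.92e-04), and Lcat, which esterifies cholesterol in plasma, was at 0.31 (SE 0.08, adjusted p = 0.0372). The call of Lcat was lost in 13 of 20 alternatives, among them leaving out any mouse other than NZO 007, quantile normalization, scan day as a term, keeping dim probes and the deposited table, while those of Scarb1 and Lipa held without any mouse. The LXR genes Nr1h3 and Nr1h2 were at 0.10 (adjusted p = 0.614) and 0.26 (adjusted p = 0.124). Abca1 and Abcg1, further exporters that LXR controls, were at -0.35 (SE 0.15, adjusted p = 0.165) and -0.38 (SE 0.12, adjusted p = 0.0771), and each passed in 2 of the 20 alternatives, the deposited table being one for both.

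The isoprenoid branch and the fatty acid arm that SREBP1 controls were read in the same way. None of 12 isoprenoid genes passed after adjustment in limma or in the Welch test, and the median was 0.10. An unadjusted limma p of at most 0.05 was found for 4 of the 12, beside 5689 of all 20137 genes. Fntb, a farnesyltransferase subunit, was well above background in 4 of 4 B6 mice but in 1 of 4 NZO mice, so it has only a bound in the other NZO mice and its fitted difference is not read as a size, although it passed with scan day as a term and without NZO 003. The smallest p was that of Fnta, the partner subunit, at 0.32 (SE 0.10, adjusted p = 0.0679). In the arm under SREBP1, Srebf1 itself fell by 0.79 on the log2 scale (SE 0.17, adjusted p = 0.0152), with NZO levels from 0.49 to 1.02 and B6 levels from 1.33 to 1.94. None of its other 11 listed genes passed after adjustment with the brightest probe over all mice, and the median of the 12 was 0.36. Of the other 11, 3 had an unadjusted limma p of at most 0.05, as did 5689 of all 20137 genes. Pnpla3, a lipase-like protein of lipid droplets, met the thresholds of the methods at 1.08 (SE 0.40, adjusted p = 0.117), and it passed after adjustment with the mean over probes and with the probe of smallest p. Me1, malic enzyme, passed with the probe of smallest p and without NZO 007. Fasn, fatty acid synthase, was at -0.03 (SE 0.36) and Scd1, a desaturase, at -0.11 (SE 0.32), with wide spread within both strains. None of the 10 clock genes tested passed in limma by either rule or in the Welch test, and 0 had an unadjusted p of at most 0.05.

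**Figure D4:**
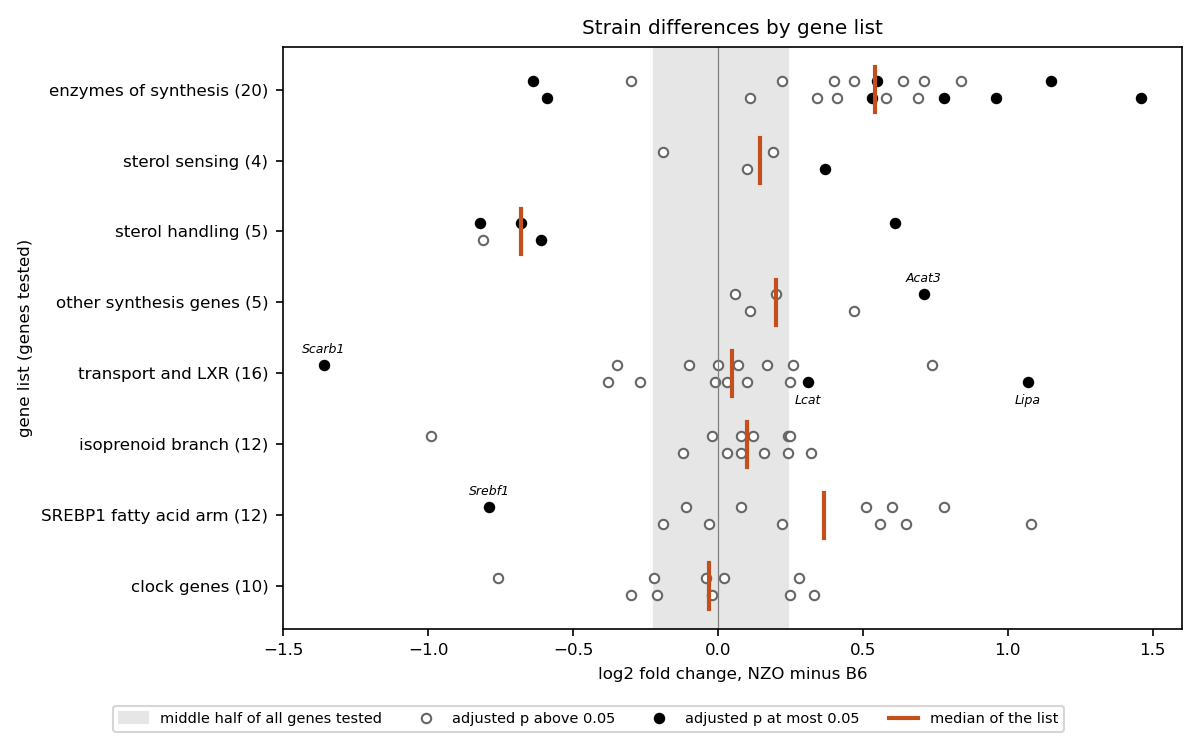
Log2 fold change, NZO minus B6, of the members by role (first 3 lines) and of 5 lists of related genes, with 1 point per gene tested, filled where the limma adjusted p was at most 0.05. Orange bars are list medians and the grey band spans the quartiles of all genes, and the lowest isoprenoid point is Fntb, which was above background in 1 of 4 NZO mice. The median lies at 0.54 for the 20 enzymes of synthesis and at -0.68 for the 5 sterol handling genes, and between -0.03 and 0.36 for the 5 other lists.

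Markers were used to check the tissue. Alb, Ttr, Apoa1, Cps1 and Tat of hepatocytes were well above background on all arrays, none of the 5 passed in limma by either rule, 0 had an unadjusted p of at most 0.05 and 1 (Ttr) passed in the Welch test after adjustment, and their differences ran from -0.31 to 0.27. Their summed linear level, in units of the 75th percentile signal and with the Alb probe the brightest, was 3870, 3920, 3850 and 3790 in NZO and 3200, 3770, 3660 and 3000 in B6. Brightness also depends on the probe, so it does not rank the transcripts of a list by abundance. In whole liver RNA, fewer cells of a type and less RNA per cell cannot be told apart. Markers of Kupffer cells, the resident macrophages, were lower in NZO for 2 of 4 after adjustment, beside 7.42% of all genes. Clec4f fell by 1.13 (SE 0.13, limma adjusted p = 8.06e-04) and Adgre1 fell by 0.63 (SE 0.13, adjusted p = 0.0146) on the log2 scale. The summed level of the 4 was 38.0, 44.5, 35.6 and 37.2 in NZO and 63.3, 60.9, 76.2 and 57.5 in B6, and the Clec4f probe was the brightest. Of 4 red blood cell markers, 2 were higher in NZO after adjustment, beside 7.35% of all genes. Hba-a1 was higher by 1.0 (SE 0.22, limma adjusted p = 0.0179) and Alas2 by 0.90 (SE 0.13, adjusted p = 0.0021). The sum of the 4 was 366, 319, 470 and 293 in NZO against 208, 165, 156 and 197 in B6, with the Hba-a1 probe the brightest. The call of Hba-a1 was lost without B6 010 or B6 015 (adjusted p of up to 0.0541), in the Welch test and in the deposited table. These move with strain as the sterol genes do, and their part in the differences was not tested.

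The remaining marker lists were checked in the same way. Of the 6 fat cell markers, Adipoq, Plin1 and Lep were at background on all 8 arrays. Cidec and Fabp4 were well above background on all 8, at 0.42 (SE 0.21, limma adjusted p = 0.242) and -0.30 (SE 0.15, adjusted p = 0.234). Fabp4 passed in the deposited table. Car3, which hepatocytes also express, had the brightest probe of the list and was 0.47 higher (SE 0.09, limma adjusted p = 0.0116). That call was lost with quantile normalization and in the deposited table. Of the 6 exocrine pancreas markers, 4 were at background on all arrays, and the sum was between 1.29 and 2.30. The sum of 4 skeletal muscle markers, with the Myh4 probe the brightest, was 17.8 in NZO 007 and 5.70 in B6 010 but at most 1.40 in the other mice. Without NZO 007, 5 members were higher and 2 were lower at the thresholds of the methods, and 4 and 2 after adjustment with the fold threshold. Without B6 010 the numbers were 8 and 2, and 4 and 2. Biliary Sox9 fell by 1.47 in NZO (SE 0.28, adjusted p = 0.00879), with a list sum between 0.442 and 0.685 in NZO and between 1.02 and 1.36 in B6. All NZO mice were below all B6 mice in that sum, and its part in the differences of the sterol genes was not tested. Of the sinusoidal markers, Stab2 (0.48) was higher after adjustment, whereas Pecam1 and Clec4g were at -0.22 and -0.23, and the call was lost with the mean over probes and in the deposited table. Of the leukocyte markers, Cd68 (-0.42) was lower after adjustment, Ptprc was at -0.52, and Lyz2 and Cd3e were at 0.41 and 0.33. Of the stellate markers, Dcn (-0.37) was lower after adjustment, and Lrat and Reln were at -0.37 and -0.38. The calls of Cd68 and Dcn were lost in 14 and 13 of 20 alternatives. Itgax was well above background in 4 of 4 B6 mice and 2 of 4 NZO mice, so no size is given for it.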

How the data were processed

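Liver RNA of 4 NZO and 4 B6 mice was measured on 1-colour Agilent arrays, 1 per mouse. The authors deposited the scanner output, whose intensity values were made by Feature Extraction 11.0.1.1 per the file headers (9.1 per the labels), with the background subtracted and no scaling between arrays. The deposited table named as normalized equalled the raw median intensity of 59305 of 59305 spots on each array (tolerance 0.01), and no normalization is given in the sources used here.

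Outlier spots were removed (96 to 137 per array). The processed signal was taken as log2, scaled to the 75th percentile of the array and averaged over spots of a probe. Probes had to be well above background in all 4 mice of NZO, of B6 or of both (27643 of 55681). Between 50.4% and 60.1% of spots were above background, 0 were saturated, and the number of arrays limits the precision. Probes were named through RefSeq accessions (27656), other accessions (85), symbols (3347) or synonyms (312), and 24281 kept the name in the files. The 60-base probes were designed on mm9, the genome of the B6 strain, and whether NZO differs in sequence under them was not tested. The brightest probe stood for a gene. Several probes were kept for 11 members, and they shared a sign in all 11.

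The strains were compared over 20137 genes without a block and with Benjamini-Hochberg adjustment over all of them, using limma 3.58.1 (R 4.3.3, data.table version 1.17.8), which was tested on simulated data. A value was missing for 7 genes on some array, none of them members. Python 3.11.15, pandas 2.3.3 and matplotlib 3.10.9 made tables and plots. The members, lists and markers were chosen with earlier results of these data known. All members are named, with at most 4 genes of each related list past the adjusted p or the gene with its smallest p. Other genes of these lists were named after their values were seen. The alternatives were normexp correction (offset 50), quantile normalization, the deposited table, keeping dim probes, probes above background on all 8 arrays, averaging probes, taking the probe of smallest p, slide (random or fixed), scan day or mouse number as terms, the Welch test of the methods and leaving out each mouse. Values within a slide or scan day were added after seeing the data. Some genes of these lists are not reported here, and other steps of sterol metabolism were not analysed here.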

Additional observations from a re-analysis of the deposited data

Results flagged for a closer look

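In 4 of the 58 groups of 4 arrays examined (29 genes in each strain), 1 array stood apart from the other 3, where chance gives about 1 in 20. Ggps1 was at 0.73 in B6 009, and its other B6 levels were 0.33 to 0.38. Lbr was at 1.02 in B6 010, with the other B6 mice at 0.80 to 0.83. Abcg5 was at 5.31 in B6 015, above 4.93 to 5.0 in the rest of the strain. Tm7sf2 was at 6.01 in NZO 011, below 6.36 to 6.41 in the other NZO mice, as were most enzymes of the chain in this mouse. The 3 B6 values lie on the side away from NZO for Ggps1, Lbr and Abcg5, and the NZO value of Tm7sf2 lies towards B6. Without the mouse in question, the log2 fold changes were -0.54, -0.54, -0.74 and 0.65 in that order.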

How the results depend on the processing

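The median of the members stayed positive under every alternative (0.18 to 0.53). Members higher, lower, higher after adjustment and lower after adjustment were 6, 2, 4 and 1. With a mouse left out they ranged from 4 to 9, 1 to 3, 4 to 8 and 1 to 3, the median from 0.29 to 0.53. Without NZO 011, 9 were higher, 8 of them after adjustment, and 1 was lower, and without B6 015 also 1 was lower. After adjustment 3 were lower without NZO 009 and 2 without NZO 007, NZO 003 or B6 010. In the deposited table, where the median of all genes moved from 0.03 to -0.15 and 29.1% of called genes were higher instead of 44.2%, 3 members were higher, 5 lower and 5 lower after adjustment. Members lower numbered 1 with normexp, 1 with the Welch test and 0 when the slide was a fixed term. After adjustment 2 were lower with quantile normalization, the mean over probes or the probe with the smallest p, and 0 with the Welch test, where 3 were higher. At any fold, 8 members rose and 5 fell after adjustment, 5 to 10 and 3 to 5 with a mouse left out. The Welch test left 5 and 2 (without Mvk, Fdps, Stard4, Ggps1, Mylip and Abcg5), keeping dim probes 5 and 3 (without Mvk, Srebf2, Stard4, Ggps1 and Mylip), and 4 and 6 were left in the deposited table (without Mvk, Tm7sf2, Srebf2 and Stard4, with Abcg8). Srebf2 and Stard4 also lost the call with the mean over probes, Srebf2 with scan day as a term and Tm7sf2 with quantile normalization. Fdft1 gained the call with the mean over probes and with normexp correction. With fixed slide terms or the mouse number as a replicate block, 0 were higher and 0 lower after adjustment at any fold, while 5 and 8 were higher unadjusted (limma), with medians of 0.33 and 0.41. Of the list and marker genes named as higher or lower after adjustment, Lipa alone kept the call with fixed slide terms and none did with the block. The fit with slide terms rests on 3 arrays of 1 slide. Numbers 009 and 011 occur in both strains, but same-numbered mice did not deviate together (r of -0.26 and 0.01 over genes), so the block pairs mice that share only a number. Among members that passed neither rule, the sign turned for Sc5d (-0.13 in the deposited table, -0.0047 with quantile normalization, -0.01 without NZO 009 and up to 0.19 without NZO 011), Ebp (-0.0038), Insig1 (-0.04) and Scap (-0.10) in the deposited table, and Insig1 (-0.06), Insig2 (0.16) and Scap (-0.02) with fixed slide terms. Of 580 values of single members under the alternatives, 9 turned sign, 32 fell below the thresholds of the methods and 26 passed them newly. The causes were not tested.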

Other observations

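Some clock genes differed widely between mice of 1 strain. Dbp, a gene of strong daily rhythm in liver, was at 1.92, 2.33, 1.52 and 1.76 in NZO and at 1.72, 0.59, 3.56 and 0.54 in B6, so B6 015 was the highest of all mice and B6 010 and B6 009 the lowest. Arntl, which is expressed in the opposite phase, was at 0.57 in B6 015 and between 1.59 and 2.18 on the other 7 arrays. Nr1d1 was at -2.66 in NZO 011 and at -0.88 in B6 009, and between -0.16 and 1.14 elsewhere. NZO 011 was also the NZO mouse with the lowest levels in 15 of 19 enzymes of the chain, and B6 009 had the lowest Sqle level of all mice (3.15), whereas B6 011, the mouse low in all 19 enzymes, had the highest Nr1d1 level (1.14). The hour of tissue collection is not given in the sources used here, and its part in the spread of the sterol genes was not tested. Per3, Cry1, Ciart, Npc1l1 and Idi2 were not well above background in all mice of either strain.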
